A study of Homo sapiens with 6 samples.

Results

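The genes described here encode the cytosolic translation initiation factors, the elongation factors with their modifying enzymes, and the aminoacyl-tRNA synthetases of the cytosol and of mitochondria. They were chosen by gene symbol: symbols that start with EIF and a digit (without EIF2AK, EIF1AX and EIF1B), symbols that start with EEF and a digit, and synthetase symbols made of an amino acid letter with ARS or ARS2, together with EPRS, FARSA and FARSB. The annotation holds 102 protein-coding genes of this kind, of which 95 were among the 12010 genes of the data, and the other 7 were not analysed here. The rule reads symbols and no measured value. The LBH589 group was 92.1 cells, an established human uveal melanoma line, exposed to 0.1 µM LBH589 for 24 h (3 libraries). It was set against 92.1 cells given DMSO, the solvent, for 24 h (3 libraries). LBH589, also called panobinostat, inhibits histone deacetylases, the enzymes that take acetyl groups off histones and other proteins. All 6 libraries come from this 1 line without any genetic change named in the labels, and whether the replicates were separate cultures is not stated, so the p-values rest on a spread between libraries that may be technical. The comparison asks which messages of the translation machinery differ after a day of histone deacetylase inhibition.

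Translation starts when eIF2 carries the initiator tRNA to the small ribosomal subunit, eIF3 holds the complex together, and the cap-binding complex eIF4F (eIF4E, eIF4G and the helicase eIF4A) brings the mRNA. The exchange factor eIF2B recharges eIF2, and phosphorylation of the alpha subunit of eIF2 under stress blocks that step and favours translation of the transcription factor ATF4. Elongation is carried by eEF1A, which delivers charged tRNAs, and by eEF2, which moves the ribosome along, while aminoacyl-tRNA synthetases attach each amino acid to its tRNA. Most amino acids have a cytosolic enzyme and a mitochondrial enzyme from separate nuclear genes. In pigment cell tumours, as in other tumours, this machinery is studied because growth signals act on eIF4F and its repressors.

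Expression is given as FPKM, fragments counted per kilobase of transcript and scaled to the mapped fragments of a library, and a gene's value is the sum over its listed transcripts. The libraries summed to between 355148 and 367222 FPKM in LBH589 and between 397174 and 422630 FPKM in DMSO, and mitochondrially encoded genes held 36.2 ± 1.09% of this in LBH589 and 41.8 ± 5.26% in DMSO (SD, n = 3 each). The files hold no counts, so the depth of the libraries is unknown. Of the melanocytic markers 7 of 7 were listed, with sums between 718 and 774 FPKM in LBH589 and between 2530 and 2670 FPKM in DMSO. Of the markers of other cell types, 2 of 4 for fibroblasts (4.23 to 5.55 FPKM in LBH589, 1.47 to 2.52 FPKM in DMSO), 1 of 4 for immune cells (0 to 2.16 and 0 to 0.585 FPKM), 1 of 3 for epithelium (0.692 to 1.12 and 0.190 to 0.452 FPKM) and 0 of 3 for endothelium were listed. Their part in the results was not tested. DMSO replicate 1 stood apart: it was the highest of the DMSO libraries in 54 of the 94 tested members (57.4%), and in 45.3% of all tested genes. Mitochondrially encoded genes held 35.8% of its FPKM, against 45.7% and 43.9% in DMSO replicates 2 and 3, and between 35.1 and 37.3% in the LBH589 libraries, and the part of this in the results was not tested.

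Summed over all 95 genes, the messages took the same share of the FPKM outside mitochondrially encoded genes in both groups within their spread. The 95 genes summed to 7248 ± 943 FPKM in LBH589 and 7507 ± 1146 FPKM in DMSO (SD, n = 3 each), which was 3.14 ± 0.353% of the FPKM outside mitochondrially encoded genes in LBH589 and 3.14 ± 0.279% in DMSO. The initiation factors alone summed to 2712, 2659 and 2662 FPKM in LBH589, against 3379, 2983 and 3088 FPKM in DMSO, without overlap. Elongation factors and their modifiers summed to 3782 ± 959 FPKM in LBH589 and 3493 ± 852 FPKM in DMSO, with overlap. In LBH589 replicate 2 the EEF2 transcript ENST00000600794 alone gave 1173 FPKM. Library sums were also lower in LBH589, and the shares of these parts were not calculated. FPKM are relative to the fragments of each library, so a change in RNA per cell and a change in the mix of cells cannot be told apart here. Within the sum of all 95 genes single factors moved in both directions. Among members above the minimum of 0.5 FPKM in both groups, the largest rises were those of the helicases EIF4A2 and EIF4A3 and of the arginyl-tRNA synthetase RARS, and the largest called falls were those of the mitochondrial alanyl-tRNA synthetase AARS2, the helicase cofactor EIF4B, the mitochondrial tyrosyl-tRNA synthetase YARS2 and the elongation factor kinase EEF2K.

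Of the 95 genes, 94 averaged 0.5 FPKM or more across all 6 libraries and were tested with limma on log2(FPKM + 1), with p-values adjusted by Benjamini-Hochberg over all 11520 tested genes. EIF5AL1, a near-identical copy of EIF5A, was the 1 gene left out, with a mean of 0.370 FPKM. EIF4E3 passed the filter through its LBH589 libraries alone, so its call is not independent of the filter, and it is 1 of the calls counted here. Called genes are those with an adjusted p below 0.05. Against a background of 48.8% of all tested genes called, 38 of the 94 members were called (40.4%). Of these, 14 were higher in LBH589 (14.9%, background 27.2%) and 24 were lower (25.5%, background 21.6%). The LBH589 and DMSO values did not overlap in 45 members (47.9%, background 59.5%). Of the 94 members 16 were higher this way (background 33.0%) and 29 were lower (background 26.5%) in LBH589. Called members whose change reached 2-fold on the log2(FPKM + 1) scale numbered 9, 4 higher and 5 lower, which is 9.57% of the members and set beside 23.9% of all tested genes. The median log2 fold change, LBH589 minus DMSO, was -0.07 over the members and 0.08 over all tested genes.

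The excess of lower over higher calls was lost with equal library sums and kept with other scalings. With equal library medians 14 members were higher and 25 lower, and with quantile normalization 14 were higher and 26 lower. When every library was scaled to an equal sum, 17 members were higher and 16 were lower, so that higher calls made up 51.5% of the members' calls in place of 36.8%. Over all genes the same scaling gave 32.5% higher and 17.3% lower, and it moved the median log2 fold change to 0.23 over all genes and to 0.09 over the members. Fold changes are on the deposited FPKM unless another scaling is named.

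**Figure D1:**
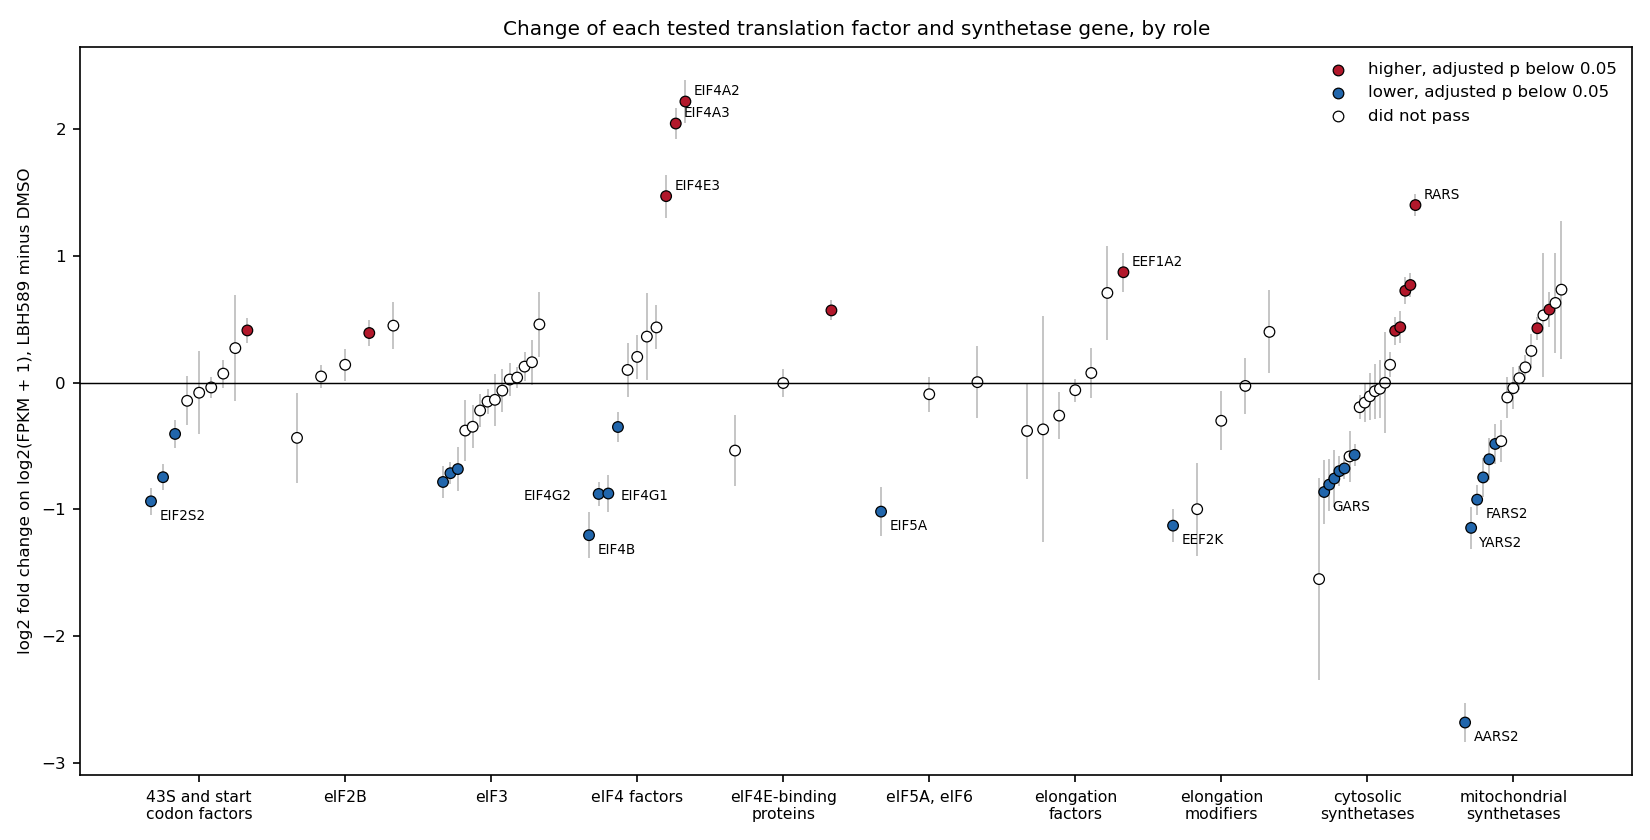
Log2 fold change of each of the 94 tested members on the log2(FPKM + 1) scale (vertical axis, LBH589 minus DMSO), in columns by role, with bars for the limma standard error. Filled points passed at adjusted p below 0.05 (14 higher, 24 lower), and the eIF4 column holds both the highest rise, EIF4A2 at 2.22, and the fall of EIF4B at -1.20.

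Among the members grouped with the factors that place the initiator tRNA and select the start codon, 1 of 9 tested was higher in LBH589 and 3 were lower. That was 11.1% and 33.3%, beside 27.2% and 21.6% of all tested genes. The group also holds EIF2A and EIF1AD, which were put there by their symbols, and both are among these calls. The eIF2 trimer was the clearest case. EIF2S2, its beta subunit, had 76.9, 76.2 and 64.2 FPKM in LBH589 replicates 1 to 3, against 142.5, 141.4 and 133.8 FPKM in DMSO replicates 1 to 3, a log2 fold change of -0.94 (SE 0.11, adjusted p = 0.000741). EIF2S3, its gamma subunit, which binds GTP and the initiator tRNA, had 76.8, 76.7 and 78.1 FPKM in LBH589, against 129, 118 and 145 FPKM in DMSO, a log2 fold change of -0.75 (SE 0.10, adjusted p = 0.00176). For both subunits every LBH589 library lay below every DMSO library.

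EIF2S1, the alpha subunit that stress kinases phosphorylate, did not pass. Its 34.0, 33.8 and 33.3 FPKM in LBH589 lay within the range of 33.6, 33.4 and 36.9 FPKM in DMSO or just beside it, and its log2 fold change was -0.04 (SE 0.09, adjusted p = 0.743), or 0.14 with equal library sums. As a share of the FPKM of the 3 subunits, EIF2S1 made up 18.4 ± 0.484% in LBH589 and 11.4 ± 0.332% in DMSO (SD, n = 3 each). These shares did not overlap, and the exact two-sided permutation p was 0.1, the smallest that 3 against 3 libraries allow. The share was chosen after the values were seen.

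EIF2A, a protein of non-canonical initiation that is not a subunit of eIF2, had 44.1 ± 3.47 FPKM in LBH589 and 58.8 ± 5.31 FPKM in DMSO (SD, n = 3 each) and fell by 0.41 on the log2 scale (adjusted p = 0.0231). Its call ended without LBH589 replicate 2 (adjusted p = 0.0798), LBH589 replicate 3 (0.077) or DMSO replicate 3 (0.0607), with equal library sums (0.16), and with its most abundant transcript (log2 fold change -1.97, 0.304). EIF1AD, which carries an eIF1A-like domain, was the member that rose, with 19.0 ± 1.23 FPKM in LBH589 and 14.1 ± 0.766 FPKM in DMSO (log2 fold change 0.41, adjusted p = 0.0155). That call ended without LBH589 replicate 1 (adjusted p = 0.0548) or LBH589 replicate 3 (0.0574) and with its most abundant transcript (log2 fold change 1.41, 0.141). The members that did not pass were EIF1, EIF2D, EIF5 and EIF5B beside EIF2S1. EIF1, which guards start codon choice, showed the unevenness of DMSO replicate 1, with 51.7, 62.4 and 46.0 FPKM in LBH589, against 86.8, 34.2 and 27.9 FPKM in DMSO, and without that library it passed (log2 fold change 0.76, adjusted p = 0.018).

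The 5 subunits of eIF2B, the exchange factor that reloads eIF2 with GTP, lay between a log2 fold change of -0.44 and 0.45. Of these 20% were called, beside 48.8% of all tested genes. EIF2B3, the gamma subunit, was the 1 member called, with 19.2, 18.8 and 19.98 FPKM in LBH589, against 15.9, 14.3 and 13.4 FPKM in DMSO, and a log2 fold change of 0.39 (SE 0.10, adjusted p = 0.0202). The groups did not overlap, but the call ended without any 1 of the LBH589 libraries (adjusted p between 0.0555 and 0.0694) and without DMSO replicate 2 (0.0585), and its most abundant transcript alone gave 0.14 (0.702). EIF2B1, the alpha subunit and the most abundant of the 5, had 32.7 ± 0.936 FPKM in LBH589 and 31.6 ± 2.23 FPKM in DMSO (SD, n = 3 each, log2 fold change 0.05, adjusted p = 0.697). EIF2B4, the delta subunit, missed the threshold (log2 fold change 0.45, adjusted p = 0.0903) but passed without DMSO replicate 1 (0.61, adjusted p = 0.024), with equal library sums (0.61, 0.0374) and with its most abundant transcript (1.24, 0.0212).

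Of the 14 tested genes of eIF3, the scaffold that joins the small ribosomal subunit to eIF4F, 0 were higher and 3 were lower in LBH589 at adjusted p below 0.05 with limma. The share called lower was 21.4%, while 27.2% of all tested genes were higher and 21.6% were lower. EIF3A, the largest subunit, had 87.6, 88.3 and 79.7 FPKM in LBH589, against 141, 138 and 142 FPKM in DMSO, a log2 fold change of -0.72 (SE 0.09, adjusted p = 0.00103). EIF3J, a loosely bound subunit that helps in start codon recognition and ribosome recycling, had 46.6, 44.9 and 45.6 FPKM in LBH589, against 79.6, 93.0 and 67.7 FPKM in DMSO, a log2 fold change of -0.78 (SE 0.13, adjusted p = 0.00351). In both genes the highest LBH589 library lay well below the lowest DMSO library, with EIF3A varying little inside either group.

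EIF3B, a core subunit, had 62.6, 52.1 and 45.0 FPKM in LBH589, against 101.6, 73.4 and 83.3 FPKM in DMSO, a log2 fold change of -0.68 (SE 0.17, adjusted p = 0.0185). The groups did not overlap, but its call ended without LBH589 replicate 2 (adjusted p = 0.0574) or 3 (0.0585) and with equal library sums (0.0589), and its most abundant transcript alone gave 0.18 (adjusted p = 0.662). EIF3E, the most abundant of the family, had 317 ± 73.9 FPKM in LBH589 and 344 ± 47.1 FPKM in DMSO (SD, n = 3 each, adjusted p = 0.623). The remaining 10 subunits also did not pass, with log2 fold changes between -0.38 for EIF3K and 0.46 for EIF3H, so that the family's summed FPKM was 1415 ± 18.3 in LBH589 and 1573 ± 45.9 in DMSO. EIF3C and EIF3CL are near-identical copies whose fragments may be split between them, and neither passed (adjusted p = 0.894 and 0.726).

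The eIF4 factors held the widest range. Of 11 tested members 3 were higher (27.3%, background 27.2%) and 4 were lower (36.4%, background 21.6%) in LBH589. EIF4A2, a paralog of the eIF4A helicase that unwinds the 5′ end of mRNAs and that is also tied to microRNA-mediated repression, had 38.8, 42.8 and 53.9 FPKM in LBH589, against 9.84, 7.30 and 9.54 FPKM in DMSO. The mean was 5.08 times that of DMSO, and the log2 fold change was 2.22 (SE 0.17, adjusted p = 0.00018). EIF4A3 (listed with 1 transcript), the helicase of the exon junction complex, which marks spliced mRNAs and is named with the eIF4A family for its sequence, had 116, 115 and 119 FPKM in LBH589, against 31.7, 23.5 and 28.0 FPKM in DMSO. That was a ratio of 4.21 and a log2 fold change of 2.04 (SE 0.12, adjusted p = 7.85e-05). Each LBH589 library of both genes lay more than 3 times above the highest DMSO library of that gene.

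EIF4A1, the abundant helicase paralog of eIF4F in most cells, did not pass on its gene sum, with 60.5, 55.9 and 65.9 FPKM in LBH589, against 82.7, 31.8 and 39.0 FPKM in DMSO and a log2 fold change of 0.36 (SE 0.34, adjusted p = 0.427). DMSO replicate 1 alone lay above the LBH589 libraries, and without it the log2 fold change was 0.76 (adjusted p = 0.00712). The excess in that library sat in the transcript ENST00000582746, which had 55.1 FPKM there, 3.26 and 2.96 FPKM in DMSO replicates 2 and 3, and was listed at 0 in each LBH589 library. The transcript ENST00000293831 had 50.3, 43.4 and 56.0 FPKM in LBH589, against 14.2, 14.7 and 15.3 FPKM in DMSO, a log2 fold change of 1.69 (adjusted p = 0.00136 over all tested transcripts). EIF4A2 made up 42.5 ± 3.05% of the summed FPKM of EIF4A2 and EIF4A1 in LBH589 and 16.3 ± 4.94% in DMSO (SD, n = 3 each, exact two-sided permutation p = 0.1). With the most abundant transcript of each gene these means were 41.6% in LBH589 and 28.1% in DMSO.

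EIF4B, the cofactor that stimulates the eIF4A helicase, moved the other way. It had 170, 160.3 and 121 FPKM in LBH589, against 410.3, 304 and 327 FPKM in DMSO, a log2 fold change of -1.20 (SE 0.18, adjusted p = 0.00246). The groups were far apart, and both of its main transcripts were lower: ENST00000262056 had 99.7 ± 30.9 FPKM in LBH589 and 206 ± 21.8 FPKM in DMSO, and ENST00000420463 had 42.8 ± 2.91 FPKM in LBH589 and 132 ± 34.8 FPKM in DMSO (adjusted p = 0.0468 and 0.00616 over all tested transcripts). EIF4H, a smaller cofactor of the same helicase, had 52.6 ± 3.85 FPKM in LBH589 and 39.3 ± 9.35 FPKM in DMSO and did not pass (adjusted p = 0.0837), though the groups did not overlap. It passed without DMSO replicate 2 (log2 fold change 0.62, adjusted p = 0.00996) and with equal library sums (0.61, adjusted p = 0.0213).

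**Figure D2:**
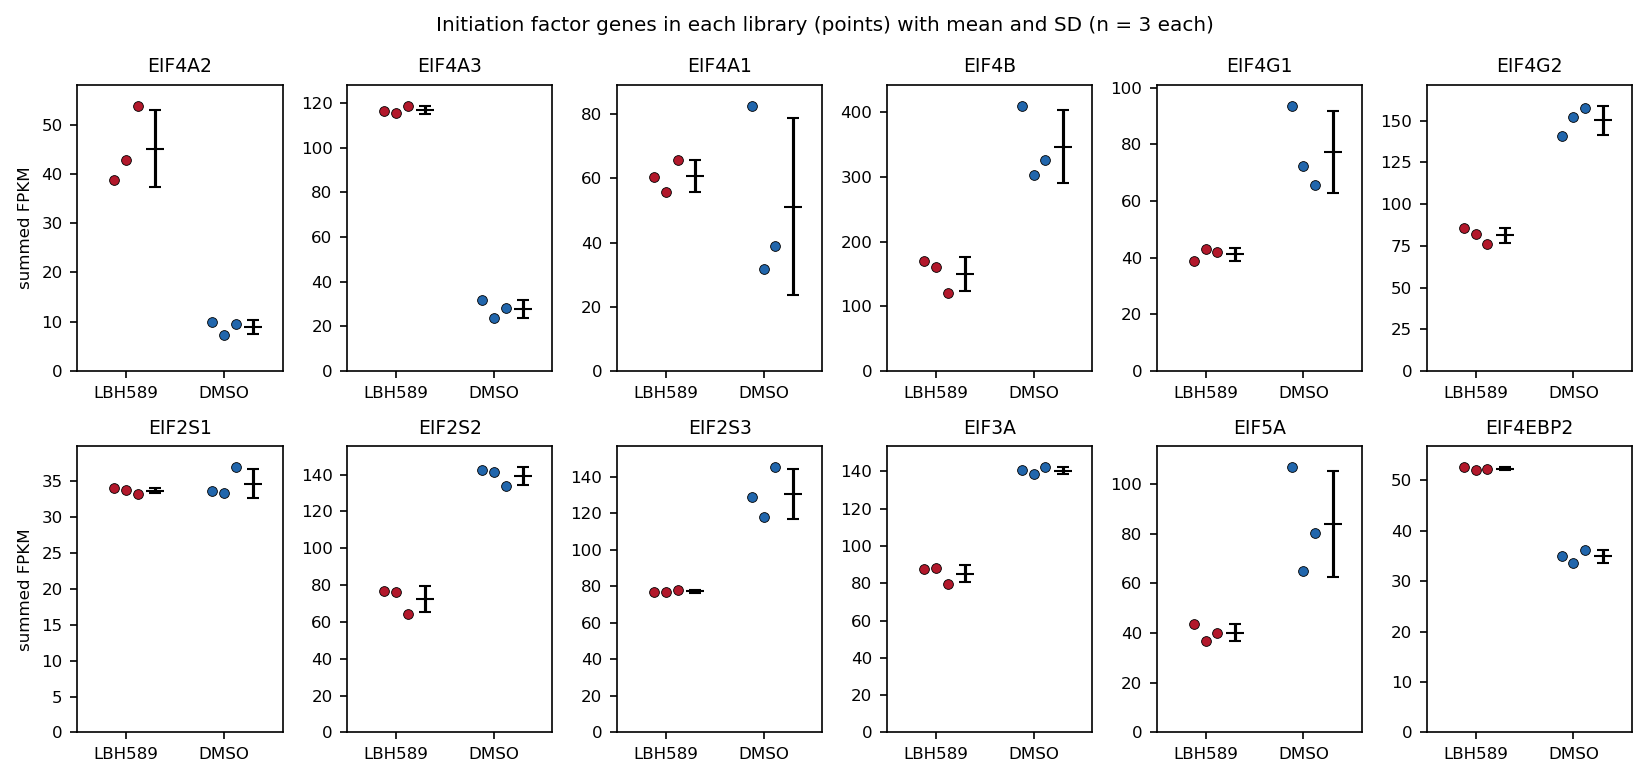
Summed FPKM of 12 initiation factor genes in each LBH589 library and each DMSO library (points), with the mean and SD of each group (n = 3). EIF4A2, EIF4A3 and EIF4EBP2 lie higher in every LBH589 library, EIF4B, EIF4G1, EIF4G2, EIF2S2, EIF2S3, EIF3A and EIF5A lie lower, and DMSO replicate 1 (leftmost DMSO point) of EIF4A1 reaches 82.7 FPKM.

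The promoters of the helicase genes with the largest rises and of the cofactor with the largest fall are shown to set their letters beside each other, 300 bases that run from before to after the annotated start, written 5′ to 3′ on the strand of the gene (RefSeq, GRCh38.p14). This build is later than the hg19 build named for the deposited values, and the sequences were matched by symbol. Capitals mark CACGTG, the E-box letters, and GGGCGG, the GC-box letters, which read CCGCCC where they lie on the opposite strand. EIF4A2 lies on the plus strand at chr3:186783327-186783626, EIF4A3 on the minus strand at chr17:80147079-80147378, and EIF4B on the plus strand at chr12:53006206-53006505.
EIF4A2: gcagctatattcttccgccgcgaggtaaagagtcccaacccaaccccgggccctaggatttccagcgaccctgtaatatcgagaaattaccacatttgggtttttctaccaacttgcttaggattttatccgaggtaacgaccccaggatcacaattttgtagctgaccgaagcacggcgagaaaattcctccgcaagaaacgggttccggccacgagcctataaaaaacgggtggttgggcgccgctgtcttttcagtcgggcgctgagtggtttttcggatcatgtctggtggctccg
EIF4A3: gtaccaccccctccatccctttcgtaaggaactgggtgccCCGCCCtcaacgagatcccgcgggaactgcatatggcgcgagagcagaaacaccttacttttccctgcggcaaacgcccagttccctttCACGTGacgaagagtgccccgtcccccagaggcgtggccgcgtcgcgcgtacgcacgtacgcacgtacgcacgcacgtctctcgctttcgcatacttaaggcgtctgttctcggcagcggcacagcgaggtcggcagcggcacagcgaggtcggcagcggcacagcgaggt
EIF4B: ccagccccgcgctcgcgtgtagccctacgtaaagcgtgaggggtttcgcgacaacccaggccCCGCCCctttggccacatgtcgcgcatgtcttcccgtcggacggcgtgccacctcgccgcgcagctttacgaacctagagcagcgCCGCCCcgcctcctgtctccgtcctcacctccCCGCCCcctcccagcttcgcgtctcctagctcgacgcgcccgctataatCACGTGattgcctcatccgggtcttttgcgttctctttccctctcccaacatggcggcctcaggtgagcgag
The EIF4A2 window holds neither of these motifs, and the EIF4A3 and EIF4B windows hold both. CACGTG stood in 15 of the 75 members with a promoter in the table (20%) and in 7.43% of all 27305 promoters of this length. GGGCGG stood in 53 of the 75 (70.7%) and in 44.6% of all promoters. The set of all promoters includes genes that were not tested here, so it is not matched to the members in expression. Among members called higher CACGTG stood in 2 of 13, among those called lower in 6 of 19, and among those not called in 7 of 42. A match describes letters only and is no evidence of binding.

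The eIF4G scaffolds, which bridge eIF4E, eIF4A and eIF3, were lower. EIF4G1, the main scaffold, had 38.7, 43.1 and 41.9 FPKM in LBH589, against 93.6, 72.4 and 65.8 FPKM in DMSO, a log2 fold change of -0.88 (SE 0.15, adjusted p = 0.00383). EIF4G2, a scaffold that lacks the eIF4E-binding part and serves cap-independent initiation, had 85.5, 82.1 and 76.3 FPKM in LBH589, against 141, 152 and 158 FPKM in DMSO, a log2 fold change of -0.88 (SE 0.10, adjusted p = 0.000655). Neither gene's groups overlapped. The EIF4G2 transcripts ENST00000640650 and ENST00000396525 were both lower, with log2 fold changes of -0.96 and -0.74.

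For EIF4G1, 12 transcripts were listed, and its most abundant one alone missed the threshold (adjusted p = 0.149). The transcript ENST00000427845 was listed at 0, 0 and 1.18 FPKM in LBH589, against 20.7, 33.2 and 23.4 FPKM in DMSO (adjusted p = 0.00225 over all tested transcripts). It passed the minimum of 0.5 FPKM through its DMSO libraries alone (mean 0.394 FPKM in LBH589), so its call is not independent of the filter. EIF4G3, the third scaffold, had 20.5 ± 0.803 FPKM in LBH589 and 26.6 ± 3.32 FPKM in DMSO, and its adjusted p of 0.0499 lay at the edge of the threshold (log2 fold change -0.35). Its call was kept in 3 of 15 alternative settings, and among those that left out a library it was kept only without DMSO replicate 1. Without any other 1 library its adjusted p lay between 0.0919 and 0.137.

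EIF4E, which binds the mRNA cap, did not pass. It had 19.2, 17.6 and 10.9 FPKM in LBH589, against 13.8, 13.6 and 15.7 FPKM in DMSO (log2 fold change 0.10, SE 0.22, adjusted p = 0.735), and the groups overlapped. Its relative EIF4E3, which binds the cap in a different manner, had 2.34, 2.32 and 3.63 FPKM in LBH589, against 0.294, 0.424 and 0.310 FPKM in DMSO. It passed the filter on low values through its LBH589 libraries alone and so had to differ. Its log2 fold change of 1.47 (SE 0.17, adjusted p = 0.000821) describes that difference, and the gene stayed among the least abundant of the members. Its most abundant transcript alone missed the threshold (adjusted p = 0.271).

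The eIF4E-binding proteins keep eIF4E from eIF4G until mTOR phosphorylates them. EIF4EBP2 had 52.6, 52.0 and 52.3 FPKM in LBH589, against 35.0, 33.6 and 36.2 FPKM in DMSO, and rose with a log2 fold change of 0.57 (SE 0.08, adjusted p = 0.00173). The spread inside either group was small beside that difference. EIF4EBP1 had 27.4, 29.9 and 31.9 FPKM in LBH589, against 65.5, 42.2 and 29.6 FPKM in DMSO, and did not pass (log2 fold change -0.54, SE 0.28, adjusted p = 0.16). DMSO replicate 3 lay inside the LBH589 range, and without it the log2 fold change was -0.81 (adjusted p = 0.0284).

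EIF4EBP2 made up 63.8 ± 1.83% of the FPKM of EIF4EBP2 and EIF4EBP1 in LBH589 and 44.7 ± 10.1% in DMSO (SD, n = 3 each, exact two-sided permutation p = 0.1). The 3 shares of LBH589 libraries lay above all 3 of DMSO. EIF4ENIF1, which carries eIF4E into the nucleus and to P bodies, had 19.0 ± 2.03 FPKM in LBH589 and 19.0 ± 0.754 FPKM in DMSO.

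EIF5A, the hypusine-carrying factor that relieves stalled ribosomes, had 43.6, 36.9 and 39.9 FPKM in LBH589, against 106.7, 64.9 and 80.1 FPKM in DMSO. All LBH589 libraries were below all DMSO libraries, and the log2 fold change was -1.02 (SE 0.19, adjusted p = 0.00589). Its 7 listed transcripts were divided unevenly between libraries, and the most abundant of them alone did not pass (adjusted p = 0.721). Some fragments could also belong to near-identical copies such as EIF5AL1, which had 0.206 ± 0.0639 FPKM in LBH589 and 0.534 ± 0.141 FPKM in DMSO.

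EIF5A2, the tissue-restricted paralog, had 6.79 ± 0.512 FPKM in LBH589 and 7.34 ± 1.10 FPKM in DMSO (log2 fold change -0.09, adjusted p = 0.619). It made up 14.5 ± 1.96% of the FPKM of EIF5A2 and EIF5A in LBH589 and 8.38 ± 2.41% in DMSO (exact two-sided permutation p = 0.1), but with the most abundant transcript of each gene the shares overlapped (p = 1.0). EIF6, which keeps the large ribosomal subunit from joining too early, had 11.4 ± 0.499 FPKM in LBH589 and 12.1 ± 5.61 FPKM in DMSO, and DMSO replicate 1 held its highest value at 18.5 FPKM.

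The elongation factors EEF1A1, EEF2, EEF1B2 and EEF1G were the 4 most abundant members. Of the 7 genes grouped as elongation factors by symbol, 1 was called (14.3%, background 48.8%). The 7 include EEF1E1, which despite its symbol belongs to the multisynthetase complex and is counted there as well. EEF1A1, which delivers charged tRNAs to the ribosome and had the highest level of all members, had 1803, 2181 and 1652 FPKM in LBH589, against 2274, 1556 and 1568 FPKM in DMSO (log2 fold change 0.08, SE 0.20, adjusted p = 0.78). EEF2, the translocation factor, had 725, 1811 and 804 FPKM in LBH589, against 748, 628 and 515 FPKM in DMSO (log2 fold change 0.71, SE 0.37, adjusted p = 0.165). In both genes the groups overlapped, and EEF1A1 also has many near-identical pseudogenes that can draw its fragments.

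The high EEF2 value of LBH589 replicate 2 came from the 352-base transcript ENST00000600794, at 1173 FPKM there and between 16.5 and 42.7 FPKM in the other libraries. The 3164-base transcript ENST00000309311 had 708 ± 69.6 FPKM in LBH589 and 597 ± 121 FPKM in DMSO (log2 fold change 0.26, adjusted p = 0.377 over all tested transcripts). The subunits of eEF1B, which recharges eEF1A with GTP, varied more between libraries than between groups. EEF1G had 291 ± 37.5 FPKM in LBH589 and 414 ± 213 FPKM in DMSO, EEF1D had 105 ± 47.9 FPKM in LBH589 and 184 ± 137 FPKM in DMSO, and EEF1B2 had 348 ± 72.2 FPKM in LBH589 and 412 ± 50.5 FPKM in DMSO. DMSO replicate 1 was the highest DMSO library in 6 of the 7 genes grouped by symbol, and LBH589 replicate 2 the highest LBH589 library in 5 of 7. Without DMSO replicate 3 EEF1D passed as lower (log2 fold change -1.40, adjusted p = 0.0382), and the other overlapping genes of the group did not pass without any 1 library.

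EEF1A2, the paralog normally found in muscle and neurons, was the elongation factor called. It had 6.31, 7.28 and 6.33 FPKM in LBH589, against 3.79, 3.27 and 2.55 FPKM in DMSO, a log2 fold change of 0.87 (SE 0.15, adjusted p = 0.00451), with no overlap. It remained a small part of the family: its share of the FPKM of EEF1A2 and EEF1A1 was 0.355 ± 0.0250% in LBH589 and 0.180 ± 0.0264% in DMSO (exact two-sided permutation p = 0.1), and with the most abundant transcript of each gene that p was 0.4. The most abundant EEF1A2 transcript alone missed the threshold (adjusted p = 0.488).

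Of the enzymes that modify elongation factors, 1 of 5 was called (20%, background 48.8%). EEF2K, the calcium-dependent kinase that phosphorylates and slows eEF2, had 2.66, 2.67 and 2.38 FPKM in LBH589, against 6.25, 7.65 and 6.57 FPKM in DMSO, a log2 fold change of -1.13 (SE 0.13, adjusted p = 0.000765). Every LBH589 library was below every DMSO library, from 1 listed transcript. The methyltransferase EEF1AKMT3 had 0.917 ± 0.549 FPKM in LBH589 and 2.91 ± 1.41 FPKM in DMSO and did not pass (adjusted p = 0.0663), but passed without DMSO replicate 1 (adjusted p = 0.0181) and with quantile normalization (0.0490). EEF1AKMT1, EEF1AKMT4 and EEF2KMT had overlapping groups, and EEF2KMT was listed at 0 in DMSO replicate 1.

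The aminoacyl-tRNA synthetases were called at about the share of all tested genes. Of 37 tested genes 7 were higher and 12 were lower in LBH589, a share of 51.4% beside 48.8% of all tested genes. Among the cytosolic enzymes 5 of 20 were higher and 6 were lower (25% and 30%), and among the mitochondrial enzymes 2 of 17 were higher and 6 were lower (11.8% and 35.3%). Over all tested genes 27.2% were higher and 21.6% were lower. The summed FPKM of the cytosolic enzymes was 620.2 ± 16.9 in LBH589 and 671 ± 87.0 in DMSO, and that of the mitochondrial enzymes was 168 ± 2.14 in LBH589 and 193 ± 17.5 in DMSO (SD, n = 3 each).

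Of the cytosolic enzymes RARS, which charges arginine tRNA, rose furthest. It had 92.4, 83.2 and 88.3 FPKM in LBH589, against 33.0, 30.9 and 34.2 FPKM in DMSO, a ratio of 2.69 and a log2 fold change of 1.40 (SE 0.09, adjusted p = 9.13e-05). The groups were separated by far more than the spread inside them. EPRS, the fused enzyme for glutamate and proline, had 71.4, 66.9 and 62.0 FPKM in LBH589, against 35.9, 41.7 and 42.6 FPKM in DMSO (log2 fold change 0.72, SE 0.11, adjusted p = 0.00221), again without overlap.

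Phenylalanyl-tRNA synthetase is built of alpha and beta subunits in equal number. FARSB, the beta subunit, had 26.9, 25.6 and 28.98 FPKM in LBH589, against 15.9, 14.6 and 16.0 FPKM in DMSO (log2 fold change 0.77, SE 0.10, adjusted p = 0.00112). FARSA, the alpha subunit, had 8.53, 9.45 and 12.2 FPKM in LBH589, against 19.8, 13.2 and 13.9 FPKM in DMSO, and it missed the threshold (log2 fold change -0.58, SE 0.20, adjusted p = 0.0532) but passed without LBH589 replicate 3 (-0.72, adjusted p = 0.0459). It also passed when genes under 5 FPKM were left out (0.0488), with equal library medians (0.0313) and with quantile normalization (0.0400). FARSB thus made up 73.1 ± 2.77% of the FPKM of both subunits in LBH589 and 50.2 ± 4.92% in DMSO (SD, n = 3 each, exact two-sided permutation p = 0.1), without overlap. This share, like that of EIF2S1, was chosen after the values were seen.

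SARS and WARS, which charge serine and tryptophan tRNA, rose by less. SARS had 70.7 ± 0.0811 FPKM in LBH589 and 52.4 ± 8.52 FPKM in DMSO (log2 fold change 0.44, adjusted p = 0.0307), and its call ended without any 1 library other than DMSO replicate 1 (adjusted p between 0.081 and 0.0908) and with the most abundant transcript (0.0681). WARS had 23.5 ± 1.89 FPKM in LBH589 and 17.5 ± 1.41 FPKM in DMSO (log2 fold change 0.41, adjusted p = 0.0225), and its call ended without LBH589 replicate 1 (adjusted p = 0.0841), LBH589 replicate 3 (0.0594) or DMSO replicate 2 (0.0686) and with the most abundant transcript (log2 fold change 0.25, 0.416). In neither gene did the groups overlap.

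The cytosolic enzymes that fell were GARS, VARS, CARS, LARS, IARS and NARS. GARS, whose gene supplies glycyl-tRNA synthetase to the cytosol and to mitochondria, had 25.8, 45.0 and 43.6 FPKM in LBH589, against 76.4, 54.8 and 75.7 FPKM in DMSO (log2 fold change -0.86, SE 0.25, adjusted p = 0.0307). Its call ended without DMSO replicate 1 (adjusted p = 0.0858) or 3 (0.0843) and with the most abundant transcript (0.0545). VARS, for valine, had 9.85 ± 1.12 FPKM in LBH589 and 18.3 ± 5.14 FPKM in DMSO (log2 fold change -0.81, adjusted p = 0.0194), and its call ended without LBH589 replicate 1 (0.0642) or 2 (0.0568). Both genes were lower in every LBH589 library than in any DMSO library. CARS, for cysteine, had 6.03 ± 1.98 FPKM in LBH589 and 10.6 ± 1.43 FPKM in DMSO (log2 fold change -0.76, adjusted p = 0.0339), and its call ended without LBH589 replicate 2 (0.0929) or 3 (0.0837) without DMSO replicate 2 (0.0976) or 3 (0.086), and with the most abundant transcript (0.377). With equal library sums GARS, VARS and CARS also missed the threshold (adjusted p = 0.0767, 0.0533 and 0.0596).

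The falls of NARS, IARS and LARS were steadier. NARS, for asparagine, had 46.4, 44.9 and 46.1 FPKM in LBH589, against 66.3, 65.8 and 73.7 FPKM in DMSO (log2 fold change -0.57, SE 0.09, adjusted p = 0.00246). IARS, for isoleucine, had 34.9, 33.0 and 32.3 FPKM in LBH589, against 52.9, 53.4 and 55.9 FPKM in DMSO (log2 fold change -0.68, SE 0.08, adjusted p = 0.00101). LARS, for leucine, had 31.7, 30.5 and 30.3 FPKM in LBH589, against 47.7, 46.2 and 59.1 FPKM in DMSO (log2 fold change -0.70, SE 0.12, adjusted p = 0.00365). In these 3 genes the LBH589 libraries lay within a narrow range under all DMSO libraries, and leaving out any 1 library kept the call. The most abundant transcripts of IARS and LARS alone missed the threshold (adjusted p = 0.456 and 0.0671).

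TARS, for threonine, had the lowest log2 fold change of the cytosolic enzymes at -1.55 but did not pass (SE 0.80, adjusted p = 0.159). Its values were 27.7, 21.3 and 6.13 FPKM in LBH589, against 129.6, 40.1 and 20.4 FPKM in DMSO, so that DMSO replicate 3 lay below 2 of the LBH589 libraries. The DMSO replicate 1 value rested on the transcript ENST00000502553, at 127 FPKM there, 10.4 FPKM in DMSO replicate 2 and at most 0.00441 FPKM in the other libraries. AARS, for alanine, had 30.8 ± 2.07 FPKM in LBH589 and 35.4 ± 1.47 FPKM in DMSO without overlap (adjusted p = 0.132). DARS, HARS, KARS, MARS, QARS and YARS had overlapping groups and log2 fold changes between -0.16 and 0.14.

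**Figure D3:**
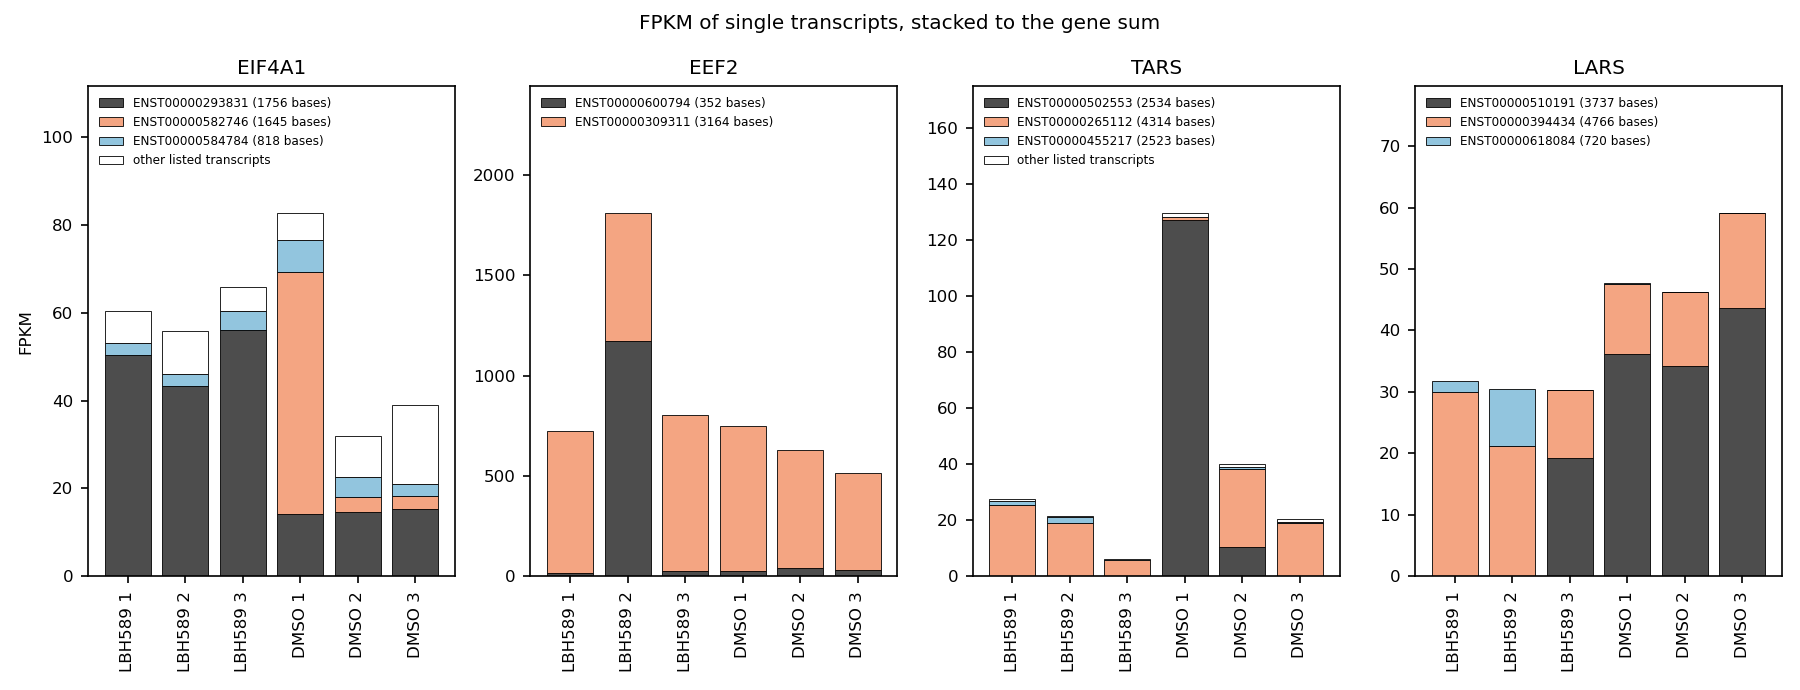
FPKM of the most abundant transcripts of 4 genes in each LBH589 library and each DMSO library, stacked to the gene sum. ENST00000582746 of EIF4A1 and ENST00000502553 of TARS are tall in DMSO replicate 1 alone, ENST00000600794 of EEF2 is tall in LBH589 replicate 2 alone, and ENST00000510191 of LARS is listed at 0 in LBH589 replicates 1 and 2.

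The largest change of any member on the log2(FPKM + 1) scale, which understates changes of low genes such as EIF4E3 (a ratio of means of 8.08), was that of a mitochondrial enzyme. AARS2 (ENST00000244571, 1 listed transcript), the mitochondrial alanyl-tRNA synthetase, had 2.93, 3.46 and 3.94 FPKM in LBH589, against 32.2, 26.5 and 24.0 FPKM in DMSO. Its mean in LBH589 was 0.125 times that in DMSO, and the log2 fold change was -2.68 (SE 0.15, adjusted p = 6.84e-05). The highest LBH589 library was far below the lowest DMSO library, and the call was kept in each of 15 alternative settings, with log2 fold changes between -2.97 and -2.53.

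YARS2, the mitochondrial enzyme for tyrosine, had 3.06, 2.92 and 3.38 FPKM in LBH589, against 8.76, 6.37 and 9.53 FPKM in DMSO (log2 fold change -1.15, SE 0.17, adjusted p = 0.0021). FARS2, for phenylalanine, had 4.41, 3.91 and 4.05 FPKM in LBH589, against 9.51, 8.07 and 8.61 FPKM in DMSO (log2 fold change -0.92, SE 0.12, adjusted p = 0.00118). NARS2, for asparagine, had 16.8, 14.8 and 16.4 FPKM in LBH589, against 32.1, 22.02 and 29.4 FPKM in DMSO (log2 fold change -0.75, SE 0.16, adjusted p = 0.00914). All 3 were lower in every LBH589 library than in any DMSO library.

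CARS2 and EARS2, for cysteine and glutamate, passed less firmly. CARS2 had 4.36 ± 1.01 FPKM in LBH589 and 7.07 ± 0.390 FPKM in DMSO (log2 fold change -0.61, adjusted p = 0.024), and its call ended without any 1 library other than LBH589 replicate 1 (adjusted p between 0.0517 and 0.0719) and with the most abundant transcript (0.144). EARS2 had 2.93 ± 0.503 FPKM in LBH589 and 4.48 ± 0.519 FPKM in DMSO (log2 fold change -0.48, adjusted p = 0.0422), and its call ended without any 1 library other than DMSO replicate 3 (adjusted p between 0.0708 and 0.127), while its most abundant transcript alone gave -0.19 (0.803). With equal library sums both missed the threshold (adjusted p = 0.0604 and 0.122).

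The mitochondrial enzymes that rose were IARS2 and PARS2, for isoleucine and proline. IARS2, the most abundant mitochondrial synthetase, had 78.9, 83.4 and 74.8 FPKM in LBH589, against 62.3, 56.1 and 57.0 FPKM in DMSO (log2 fold change 0.43, SE 0.09, adjusted p = 0.00973). PARS2 had 2.56, 2.07 and 2.36 FPKM in LBH589, against 1.38, 1.31 and 1.01 FPKM in DMSO (log2 fold change 0.58, SE 0.14, adjusted p = 0.0137), and without LBH589 replicate 1 it missed the threshold (adjusted p = 0.051). Neither gene's groups overlapped. LARS2 was lower and MARS2 was higher in every LBH589 library without passing (adjusted p = 0.0612 and 0.166; LARS2 passed without DMSO replicate 3, at 0.0186, and in 3 other settings, at 0.0269 with quantile normalization), and the other 7 mitochondrial enzymes had overlapping groups. Of these, SARS2 passed as higher without DMSO replicate 1 (adjusted p = 0.028) and VARS2 without DMSO replicate 2 (0.00816), libraries in which they stood at 2.74 and 3.11 FPKM.

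Setting the cytosolic and mitochondrial enzymes for the same amino acid side by side gave 15 pairs, with FARSA standing for the cytosolic phenylalanine enzyme and EPRS for the glutamate one. Both enzymes were called in the same direction in 2 pairs, the cysteine and asparagine pairs, which were lower. They were called in opposite directions in 2 pairs: EPRS was higher and EARS2 lower, and IARS was lower and IARS2 higher. With FARSB in place of FARSA the phenylalanine pair would join these, with FARSB higher and FARS2 lower. EPRS also charges proline, and a proline pair of EPRS and PARS2, not among the 15, would have both enzymes called higher. In 8 pairs 1 of the enzymes was called, among them the alanine pair, where AARS2 fell and AARS did not pass, and the arginine pair, where RARS rose and RARS2, with 17.0 ± 1.16 FPKM in LBH589 and 16.6 ± 0.511 FPKM in DMSO, did not pass. In 3 pairs neither was called. The difference between the 2 enzymes of a pair was not tested.

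**Figure D4:**
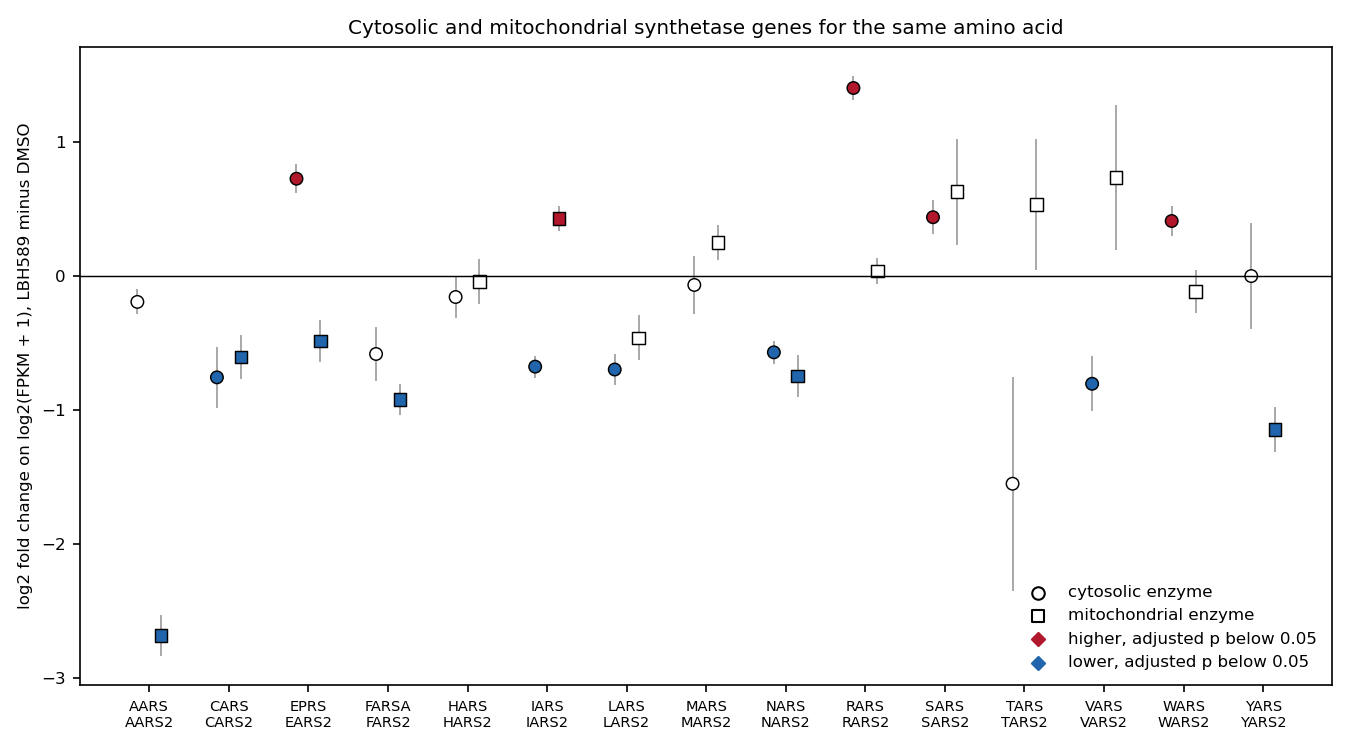
Log2 fold change on the log2(FPKM + 1) scale (LBH589 minus DMSO) of the cytosolic (circles) and mitochondrial (squares) synthetase genes of 15 amino acid pairs, with bars for the limma standard error and filled marks at adjusted p below 0.05. AARS2 lies at -2.68 and RARS at 1.40, while their counterparts AARS and RARS2, which did not pass, lie at -0.19 and 0.03.

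Many cytosolic synthetase genes are known targets of ATF4, which with C/EBP proteins binds elements with the letters TGATGNAA. Of 12 synthetases known as such targets 3 were higher (EPRS, SARS and WARS) and 5 were lower (CARS, GARS, IARS, LARS and NARS) in LBH589, beside 27.2% higher and 21.6% lower over all tested genes. With equal library sums 3 were higher and 3 were lower. RefSeq promoters of the same 300-base span were found for 75 of the 95 members, and TGATGNAA was searched on both strands. It stood in 6 of 16 cytosolic synthetases (37.5%), in 1 of 14 mitochondrial synthetases, in 0 of 45 other members, and in 3.67% of all 27305 promoters, which include genes not tested here. The 7 windows are shown because the same letters recur in them, often at the start of the gene. Each has 30 bases, written 5′ to 3′ on the strand of the gene, with the motif in capitals, which reads TTNCATCA where it lies on the opposite strand. They lie on the minus strand for AARS (chr16:70289675-70289704), CARS (chr11:3057407-3057436), IARS (chr9:92293692-92293721), NARS (chr18:57621804-57621833) and YARS2 (chr12:32756076-32756105), and on the plus strand for MARS (chr12:57488053-57488082) and TARS (chr5:33440956-33440985), all in GRCh38.p14.
AARS: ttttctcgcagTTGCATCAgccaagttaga
CARS: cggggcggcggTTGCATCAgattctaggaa
IARS: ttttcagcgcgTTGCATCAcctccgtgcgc
MARS: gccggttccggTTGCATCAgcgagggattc
NARS: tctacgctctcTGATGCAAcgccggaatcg
TARS: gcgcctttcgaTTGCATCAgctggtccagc
YARS2: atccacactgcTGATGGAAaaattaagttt
The motif began at -2, -13, -4, 14 and 2 bases from the annotated start in CARS, IARS, MARS, NARS and TARS, and at -187 and -197 in AARS and YARS2, with negative positions before the start. Of the 7 genes, CARS, IARS, NARS and YARS2 were lower in LBH589, AARS, MARS and TARS did not pass, and none was higher. Over the members this was 4 of the 19 called lower with a promoter, 0 of the 13 called higher and 3 of the 42 not called. These counts describe letters and calls and show nothing about binding.

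ATF4 itself had 96.4, 76.0 and 92.3 FPKM in LBH589, against 153, 117 and 142 FPKM in DMSO, and fell by 0.63 on the log2 scale (adjusted p = 0.0141), without overlap. It belongs to a list of 9 genes of the eIF2 kinases, their opposing phosphatase subunits and the ATF4 axis. Of these 4 were higher and 2 were lower, with the same shares over all tested genes beside them. The 2 lower genes were ATF4 and the kinase EIF2AK2. With equal library sums 5 of the 9 were higher and 1 was lower, so not both of these falls held under that scaling. PPP1R15A and PPP1R15B, which direct phosphatase to eIF2 alpha, had 50.3 ± 2.61 and 25.1 ± 0.862 FPKM in LBH589, against 16.4 ± 2.23 and 11.3 ± 0.249 FPKM in DMSO (log2 fold changes 1.57 and 1.09, adjusted p = 0.000173 and 0.000202). DDIT3, a stress-induced partner of C/EBP proteins, had 10.2 ± 1.24 FPKM in LBH589 and 2.94 ± 0.764 FPKM in DMSO (log2 fold change 1.52, adjusted p = 0.00101). ATF4 was named here because of its motif, after its values were seen.

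**Figure D5:**
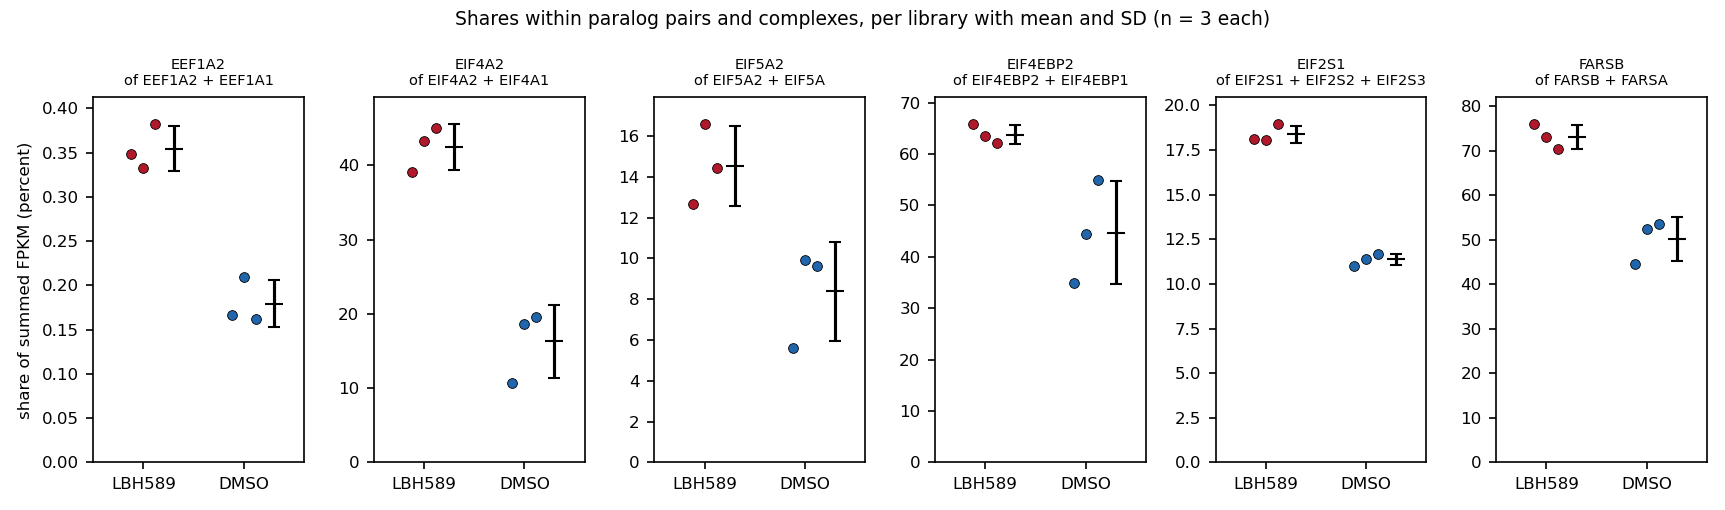
Share of summed FPKM (percent) held by 1 paralog or subunit within its pair or complex in each LBH589 library and each DMSO library (points), with the mean and SD (n = 3). In all 6 panels the LBH589 libraries lie above the DMSO libraries, for example EIF4A2 at 39.1 to 45.0% in LBH589 and 10.6 to 19.6% in DMSO.

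In 4 pairs of paralogs the shares of EEF1A2, EIF4A2, EIF5A2 and EIF4EBP2 in the summed FPKM of their pair were higher in every LBH589 library than in any DMSO library. The exact permutation p was 0.1 for each, the smallest that 3 libraries a group allow, and 0.1 when adjusted over the 4 pairs. With the most abundant transcript of each gene that p was 0.4 for EEF1A2 and 1.0 for EIF5A2. The calls within the pairs differed. EIF4A2 and EEF1A2 rose while EIF4A1 and EEF1A1 did not pass, EIF4EBP2 rose while EIF4EBP1 did not pass, and EIF5A fell while EIF5A2 did not pass. A gene that did not pass was not thereby shown to be unchanged. By limma EIF4EBP1 passed as lower without DMSO replicate 3 (log2 fold change -0.81, adjusted p = 0.0284). EIF4A1 passed as higher without DMSO replicate 1 (0.76, adjusted p = 0.00712).

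Members grouped by what they share in other ways did not follow a single direction. Of 10 members with classical TOP mRNAs, whose 5′ ends make their translation depend on mTOR, EEF1A2 was higher, EIF4B was lower and 8 did not pass, so that 20% were called beside 48.8% of all tested genes. Of 9 genes of the multisynthetase complex, which holds several cytosolic synthetases on scaffold proteins, EPRS and RARS were higher, IARS and LARS were lower, and DARS, EEF1E1, KARS, MARS and QARS did not pass (44.4% called). By level, 17 of the 34 members at 50 FPKM or more were called (50%, beside 51.9% of all genes at that level), 12 of the 35 between 10 and 50 FPKM (34.3% beside 53.5%) and 9 of the 25 below 10 FPKM (36% beside 45.8%). Of the 34 abundant members 5 were higher and 12 were lower, beside 20.3% higher and 31.6% lower over all genes at that level.

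Members with 1 listed transcript were called in 42.3% of 26 cases (6 higher, 5 lower), beside 49.9% of all genes with 1 listed transcript. Those with more transcripts were called in 39.7% of 68 cases (8 higher, 19 lower), beside 48.1% of all such genes. When the 291 member transcripts above the same minimum were tested singly, 30 were called (10.3%, background 15.9%), 13 higher (background 8.62%) and 17 lower (background 7.33%). Some of these passed the minimum through 1 group alone, so their calls are not independent of it.

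Genes that work beside the members are given by lists, and each count stands beside the 27.2% of all tested genes that were higher and the 21.6% that were lower. Of 14 regulators of the cap complex and mTOR signalling 3 were higher and 2 were lower. MKNK2, a kinase of eIF4E, had 29.3, 31.4 and 34.8 FPKM in LBH589, against 6.71, 2.96 and 1.65 FPKM in DMSO (log2 fold change 2.92, SE 0.38, adjusted p = 0.00136). PAIP1, a partner of the poly(A)-binding protein, had 31.2 ± 4.51 FPKM in LBH589 and 98.5 ± 12.6 FPKM in DMSO (log2 fold change -1.63, adjusted p = 0.000341), and LARP1, which binds TOP mRNAs, had 35.0 ± 0.675 FPKM in LBH589 and 70.8 ± 3.22 FPKM in DMSO (log2 fold change -0.99, adjusted p = 0.000225). In each of these genes the LBH589 and DMSO libraries were apart.

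Of 7 tested genes of termination and ribosome recycling 2 were higher and 1 was lower. HBS1L and PELO, which rescue stalled ribosomes together, had log2 fold changes of 1.09 and 0.47 (adjusted p = 0.00243 and 0.0333), and ABCE1, which splits ribosomes after termination, had 30.6 ± 1.36 FPKM in LBH589 and 54.0 ± 5.87 FPKM in DMSO (log2 fold change -0.79, adjusted p = 0.00169). Of 13 mitochondrial translation factors 4 were higher and 2 were lower. MTIF2, the mitochondrial initiation factor, had 62.1 ± 1.5 FPKM in LBH589 and 41.6 ± 1.64 FPKM in DMSO (log2 fold change 0.57, adjusted p = 0.00192), TSFM, an elongation factor of mitochondria, rose by 0.56 on the log2 scale (adjusted p = 0.00358), and QRSL1, a subunit of the enzyme that makes mitochondrial glutaminyl-tRNA, fell by 0.60 (adjusted p = 0.00872).

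Of 8 tested genes that make hypusine on eIF5A or diphthamide on eEF2, 3 were higher in LBH589 and 0 were lower by limma. DHPS, the enzyme that starts hypusine synthesis, had 6.01 ± 1.55 FPKM in LBH589 and 3.08 ± 1.03 FPKM in DMSO (log2 fold change 0.79, adjusted p = 0.0391). The diphthamide genes DPH6 and DPH7 had log2 fold changes of 0.67 and 1.81 (adjusted p = 0.00598 and 0.0312). The DPH7 change (SE 0.53) rests on low values, 2.53, 7.95 and 7.52 FPKM in LBH589, against 1.13, 0 and 1.96 FPKM in DMSO. Of 6 genes of synthetase scaffolds and selenocysteine insertion 4 were higher and 0 were lower by limma, where 27.2% and 21.6% of all tested genes were. AIMP1, a scaffold of the multisynthetase complex, had 41.3 ± 1.99 FPKM in LBH589 and 31.8 ± 1.71 FPKM in DMSO (log2 fold change 0.37, adjusted p = 0.0163). EEFSEC, the elongation factor for selenocysteine, had 7.16 ± 1.13 FPKM in LBH589 and 2.28 ± 0.840 FPKM in DMSO (log2 fold change 1.33, adjusted p = 0.00355), and SECISBP2, which binds the selenocysteine element, rose by 0.59 on the log2 scale (adjusted p = 0.00172).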

How the data were processed

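The deposited values are FPKM per transcript, 1 file for each library, per the file headers. Per the labels' protocols, total RNA was taken with Trizol and 1 library was made from each sample with an Illumina TruSeq kit. The submitters' processing notes name Bowtie 0.12.2 and hg19 but no roles for them. How FPKM were estimated, and on which annotation, is not given in the sources used here. The authors' files list 30624 transcripts, each reaching 0.5 FPKM in the mean of at least 1 group.

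Of these, 30504 (99.6%) were named through the transcript identifiers of GENCODE release 29, without coordinates, and FPKM was summed per gene. Genes averaging 0.5 FPKM or more entered limma 3.58.1 (R 4.3.3) as log2(FPKM + 1), with a trend, robust moderation and a treatment term alone, with Benjamini-Hochberg adjustment over all 11520. A pseudocount of 1 understates changes of low genes. For shares, exact permutation tests were run two-sided in scipy 1.17.1. The fit was tested on simulated data. No pair of libraries shared more than 1 equal transcript value above 0.

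Alternatives were a pseudocount of 0.1, leaving out the filter, a filter at 5 FPKM, equal sums, equal medians, quantile normalization, limma without trend and robust moderation, a replicate block, the most abundant transcript and leaving out each library. Subunit shares and tests of single transcripts were added after the data were seen. The result of 1 member and its pair of synthetases is not reported here. Members and lists were chosen with earlier results of these data known. Named in full were up to 3 called members with the largest rises and falls in each role, the most abundant member of each role and 15 chosen genes, and others are given to account for every member, after their values were seen.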

Additional observations from a re-analysis of the deposited data

How the results depend on the processing

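The fit was repeated under 15 alternatives, and 19 of the 38 called members (7 higher, 12 lower) kept their call and direction in each setting in which they were tested. AARS2, RARS, EIF4A2, EIF4A3, EIF4B, EIF4G2, EIF2S2, EIF2S3, EIF3A, EIF3J and EIF4EBP2 are among these. Leaving out each library in turn gave between 9 and 18 higher members, with 9 without LBH589 replicate 1, and between 17 and 22 lower members. Reading each gene from its most abundant transcript gave 13 lower and 10 higher members, and the cause was not tested. At a mean of at least 5 FPKM 1844 of all genes were higher, from 6866 genes tested in place of 11520.

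Of the values of the 49 genes that were called or named by the rule, 627 stayed on their side of the threshold, 80 no longer passed, 3 newly passed and 20 changed sign. Of the other 45 tested members, none called, 20 changed sign in at least 1 alternative. Over all 95 members 15 newly passed in at least 1 alternative, with EIF5AL1 doing so without the filter (adjusted p = 0.0445). EIF3B, a called member, had a log2 fold change of 0.18 with its most abundant transcript, where the cause was not tested. The others of the 49 that changed sign were genes that had not passed. With equal library sums EIF2S1, EIF3E and EIF5A2 had 0.137, 0.0437 and 0.0661. With the most abundant transcript EEF1AKMT1, EIF4E and EIF5A2 had 0.122, -0.0352 and 0.334. EIF6 had -0.0231 with equal library medians and -0.0156 with quantile normalization. Without 1 library in turn EEF1A1 lay between -0.037 and 0.256, EIF2S1 between -0.0641 and 0.00696, EIF3E between -0.277 and 0.0651, EIF4E between -0.0473 and 0.334, EIF5A2 between -0.18 and 0.00805 and EIF6 between -0.22 and 0.332. EIF3I, not called, passed without DMSO replicate 2 (-0.50, adjusted p = 0.0406).

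With the replicate number as a block 11 members were higher and 19 lower, and 2617 and 2172 of all genes. The calls of CARS, CARS2, EARS2, EIF1AD, EIF2B3, EIF4G3, GARS, SARS and VARS ended with the block. The labels do not say that a number pairs libraries, and deviations of same-numbered libraries from their group means correlated at -0.10, 0.02 and -0.04 across genes, so the numbers were not taken as pairs. DMSO replicate 1 correlated best with LBH589 replicate 3, not with its own number. TARS passed with the block (adjusted p = 0.0176). Depth is unknown, so counting error could not be set beside the spread, and values under about 1 FPKM are the least certain. An exact 0 of a transcript can be a failed estimate, and splits between transcripts of a gene differed between libraries of 1 group.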

Other observations

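The main transcripts of LARS had log2 fold changes of opposite sign, -3.83 and 0.54. Its 3737-base transcript ENST00000510191 was listed at 0, 0 and 19.3 FPKM in LBH589, against 36.1, 34.2 and 43.7 FPKM in DMSO. Its 4766-base transcript ENST00000394434 had 20.7 ± 9.48 FPKM in LBH589 and 13.0 ± 2.14 FPKM in DMSO (SD, n = 3 each). Neither transcript passed with limma (adjusted p = 0.102 and 0.396 over all tested transcripts), while the LARS sum passed as lower.

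EIF3H, a subunit of eIF3, did not pass on its sum but held a called transcript. ENST00000518995, of 731 bases, had 30.8, 53.1 and 8.59 FPKM in LBH589, against 0.784, 0.345 and 0 FPKM in DMSO (log2 fold change 4.25, adjusted p = 0.0132 over all tested transcripts). It passed the minimum of 0.5 FPKM through its LBH589 libraries alone (mean 0.376 FPKM in DMSO), so its call is not independent of the filter. ENST00000518949, of 843 bases, stood at 174 FPKM in LBH589 replicate 3 and between 1.21 and 3.13 FPKM in the other libraries. The longer transcript ENST00000521861 had 77.5 ± 17.9 FPKM in LBH589 and 114 ± 15.8 FPKM in DMSO (SD, n = 3 each) and did not pass. These transcripts were chosen after their values were seen.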
